A study of Mus musculus with 12 samples.

Results

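Mammary gland libraries in which many sequenced reads fell outside every annotated gene were set against libraries in which few did. The measure was the share of all tallied reads that matched no gene in the deposited counts. The libraries were chosen by this share: the 4 with the highest and the 4 with the lowest were compared, 8 of 12 in all, and the other 4 are given as values between them. Every library was made from a right thoracic mammary fat pad of a female C57BL/6 mouse, a common inbred strain, taken on postnatal day 84, when 4 weeks had passed since folic acid was supplemented. The dose was 5 mg/kg for 6 libraries and 1 mg/kg for the other 6. The fat pad was frozen whole, so each library holds RNA of fat, epithelium, vessels, immune cells and whatever tissue adhered to the pad. Each sample title carries a number of its own, but nothing in the labels says that libraries of 1 dose come from separate animals, so p-values measure only the spread among these libraries, which may be technical. The labels number no replicates: the replicate numbers used here follow accession order within a dose and only name the libraries.

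The share was 26.6% in replicate 6 at 1 mg/kg, 20.8% in replicate 6 at 5 mg/kg, 18.7% in replicate 1 at 1 mg/kg and 14.1% in replicate 2 at 1 mg/kg, which are the high-share libraries. Replicates 4 and 3 at 1 mg/kg had 10.6% and 8.34%, and replicates 4 and 5 at 5 mg/kg had 7.05% and 5.58%, and these are the low-share libraries. The boundary on the high side is thin: the next library, replicate 3 at 5 mg/kg, had 14.0%, and the library next to the low side, replicate 1 at 5 mg/kg, had 11.6%. These values chose the libraries and are given as a description. Leaving reads aligned to more than 1 place and reads that matched more than 1 gene out of the denominator picked the same 8 libraries. Of the high-share libraries 3 had the 1 mg/kg dose and 1 the 5 mg/kg dose, and the low-share libraries were 2 of each. Over all libraries the share was 15.1 ± 6.61% at 1 mg/kg and 11.8 ± 5.43% at 5 mg/kg (SD, n = 6 each, exact two-sided permutation p = 0.368). Values below are listed in the order of the share, from the highest to the lowest.

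Reads outside genes come from introns, from between genes, and from transcripts that the annotation lacks. A newly made transcript carries its introns until the splicing machinery removes them in the nucleus, while mature mRNA is held mostly in the cytoplasm and ribosomal and messenger RNA of the mitochondrial genome inside the mitochondria. Some long noncoding RNAs, Malat1 and Neat1 among them, stay in the nucleus, at nuclear speckles and paraspeckles. The levels of nuclear, cytoplasmic and mitochondrial transcripts were therefore described side by side along the share.

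The measured sequences that bear on this most directly are gene models that lie within an intron of another gene. A table of exon counts can hold reads from inside an intron where an annotated exon covers it, as in such a model. Reads of the model's own transcript and reads of the host's unspliced transcript cannot be told apart there. Stretches are shown from 2 such models and, for comparison, from 2 nuclear long noncoding RNAs, each around its longest run of adenines, because the library kit, TruSeq RNA Sample Prep Kit v2, selects RNA by its adenines. They are GENCODE vM21 transcript sequences on GRCm38, with the run in capitals.
6720464F23Rik, inside an intron of Rabgap1l, chr1:160609667-160609729, minus strand: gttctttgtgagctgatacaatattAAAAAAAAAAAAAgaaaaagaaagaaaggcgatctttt
Gm42611, inside an intron of Ankrd13c, chr3:157981869-157981930, plus strand: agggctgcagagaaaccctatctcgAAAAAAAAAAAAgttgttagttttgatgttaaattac
Malat1, chr19:5795963-5796024, minus strand: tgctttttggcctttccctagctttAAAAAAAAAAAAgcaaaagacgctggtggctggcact
Kcnq1ot1, chr7:143226920-143227010, minus strand: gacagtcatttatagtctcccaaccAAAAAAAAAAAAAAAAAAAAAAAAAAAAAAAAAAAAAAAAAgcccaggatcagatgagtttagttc
The run was 13 bases long in 6720464F23Rik, 12 in Gm42611 and in Malat1, and 41 in Kcnq1ot1.

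**Figure D1:**
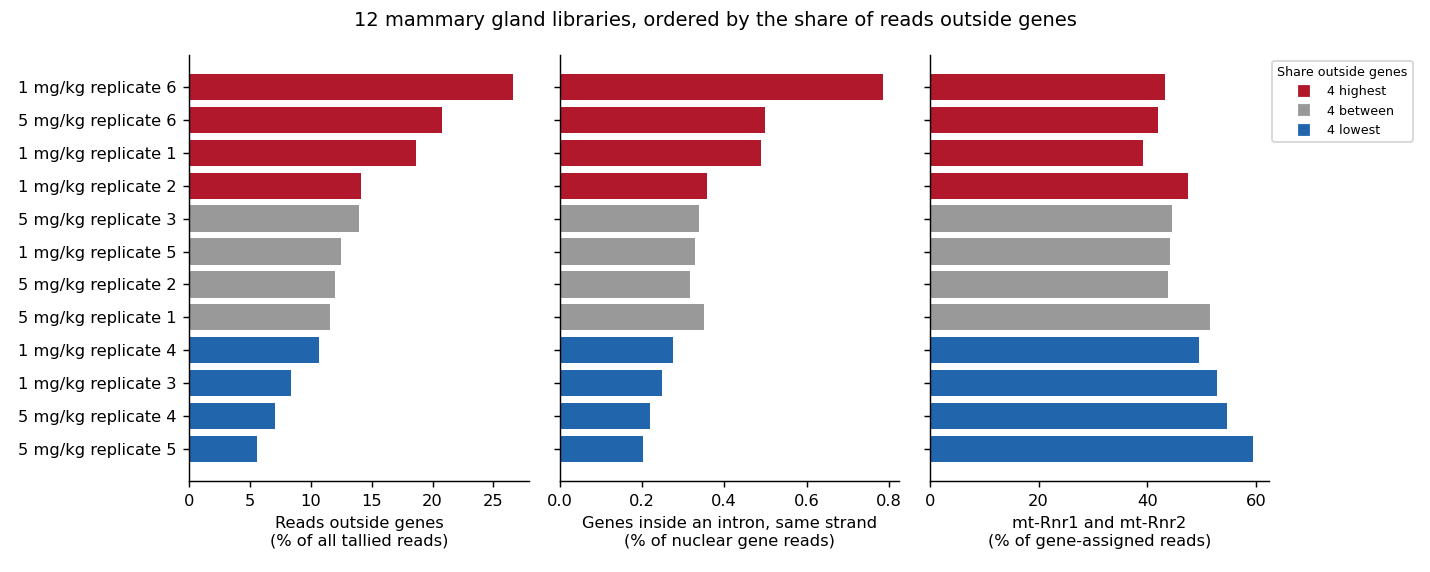
Bars give, for each of the 12 libraries ordered by the share, the reads outside genes as % of all tallied reads, the reads on genes lying inside an intron of another gene on the same strand as % of nuclear gene reads, and mt-Rnr1 and mt-Rnr2 as % of gene-assigned reads. Intronic models fell from 0.786% in the library with the highest share to 0.202% in the one with the lowest, while the mitochondrial rRNA genes took 43.3% and 59.5% there.

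There were 77.0 ± 2.72 M tallied reads (M, 1e6 reads) in the high-share and 83.0 ± 8.09 M in the low-share libraries (SD, n = 4 each, exact two-sided permutation p = 0.286 over 70 assignments). Gene-assigned reads, from which the fits take library size, were 54.4 ± 5.01 M and 67.6 ± 6.70 M. They did not overlap between the sets, at 48.2 to 59.2 M and 61.6 to 75.3 M. The smallest p that 4 libraries against 4 can give is 0.0286, and values were adjusted over 8 measures by the Benjamini-Hochberg method. For each 100 reads on nuclear genes there were 53.2 ± 16.8 reads outside genes in the high-share libraries and 23.4 ± 4.36 in the low-share libraries, which restates the rule on another denominator. Nuclear protein-coding genes held 95.4 ± 0.937% of nuclear gene reads against 97.0 ± 0.177% (exact permutation p = 0.0286, adjusted 0.0457), and the sets did not overlap. Thinned to 24740023 nuclear gene reads in each library, 18636 ± 667 genes had at least 10 reads in the high-share libraries and 17344 ± 349 in the low-share libraries (exact permutation p = 0.0286, adjusted 0.0457). Without thinning the numbers were 19158 ± 608 and 17642 ± 563 (exact permutation p = 0.0571, adjusted 0.0762), and the sets overlapped. Reads aligned to more than 1 place were 8.62 ± 0.355% and 10.03 ± 0.466% of tallied reads (exact permutation p = 0.0286, adjusted 0.0457), a value that shares its denominator with the share. Reads that matched more than 1 gene, and so were given to none, were 0.760 ± 0.130% and 0.635 ± 0.0535% (exact permutation p = 0.114, adjusted 0.131).

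Across genes, the 4 high-share and the 4 low-share libraries were compared with edgeR's quasi-likelihood test. No gene of 18310 passed a Benjamini-Hochberg adjusted p of 0.05, the smallest being 0.0537, shared by 613 genes. With p not adjusted, 3542 genes were under 0.05 and higher in the high-share libraries (19.3%) and 2844 were lower (15.5%). DESeq2 called 4154 genes and limma-voom with sample quality weights 2301, and edgeR without replicate 2 at 1 mg/kg, the library nearest to the boundary, called 3585. Without replicate 4 at 1 mg/kg it called 467, and without any other of the 8 libraries none. The level of a gene in CPM, its reads for each 1e6 of the scaled library size, did not overlap between the sets for 1959 genes on the higher side (10.7%) and for 1522 on the lower (8.31%).

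All 12 libraries gave a second reading that needs no split, as a slope in log2 units per 10 percentage points of the share. In edgeR's quasi-likelihood test 2690 of 20832 genes rose with the share (12.9%) and 3435 fell (16.5%) at a Benjamini-Hochberg adjusted p under 0.05. "Rose" and "fell" refer to this test below. Among 15529 protein-coding genes 8.87% rose and 20.2% fell. Without replicate 6 at 1 mg/kg, the library with the highest share, 908 genes rose and 1801 fell, and without replicate 5 at 5 mg/kg, the library with the lowest share, 1625 rose and 2194 fell. The levels of brown fat markers ran against the share, with a Spearman's rank correlation of -0.90 for their mean level (n = 12). With that level as a term no gene passed in edgeR (smallest adjusted p 0.0992, and 4658 genes at an unadjusted p under 0.05). A fit with both terms can hardly separate them, so a loss of calls there does not show what the slopes reflect. CPM here were scaled by TMM factors, so that CPM totals ran from 720566 to 1542260. With library size alone the median over all genes between the sets moved from 0.06 to 0.72 and 8100 of 8280 called genes were higher, and 10085 of 10626 genes called for the slope rose, so each class below is to be read against the median of all genes.

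**Figure D2:**
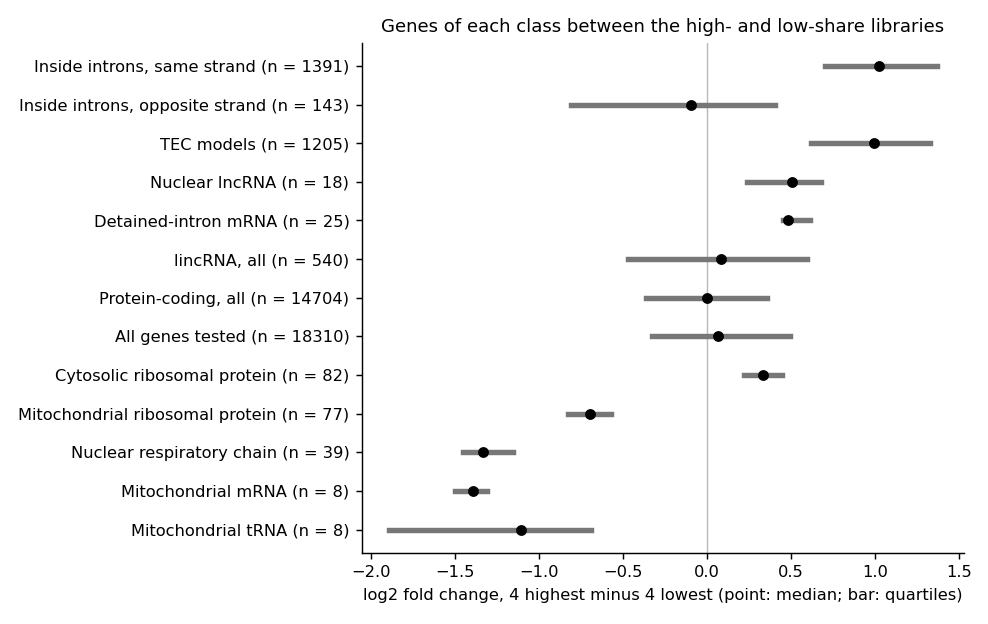
Points give the median log2 fold change of each class between the 4 libraries with the highest and the 4 with the lowest share, and bars the quartiles over the genes tested. Genes inside introns on the same strand stand at 1.02 and mRNAs of the mitochondrial genome at -1.39, beside 0.06 over all genes tested.

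Gene models inside introns of another gene on the same strand were higher in the high-share libraries, with a median log2 fold change of 1.02 over 1391 tested genes beside 0.06 over all genes. Along the share 949 of 1839 rose (51.6%) and 8 fell, beside 12.9% and 16.5% of all genes. Leaving out replicate 6 at 1 mg/kg left 408 of 1585 rising and 4 falling, while leaving out any other library left 1758 to 1836 models tested. Some models therefore passed the filter on low counts only through the library where they are high, 1839 of the 4133 models passed it in all, and the counts describe those tested and not all such models. With the brown fat level as a term none passed, and their median slope was 0.69 in place of 0.80. Their summed level was 3065, 2330, 2064 and 1814 CPM in the high-share libraries, 1540, 1578, 1478 and 1655 CPM in the 4 between, and 1412, 1359, 1119 and 1098 CPM in the low-share libraries. Every high-share library lay above every other one.

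Many of these models carry the label TEC, which GENCODE gives to mostly unspliced models that await experimental evidence. Of 3214 TEC models, 1205 were tested between the sets, with a median of 0.99. Along the share 714 of 1432 rose (49.9%) and 15 fell, beside 12.9% and 16.5% of all genes. Without replicate 6 at 1 mg/kg 357 of 1323 rose and 4 fell. By position within this label, TEC models inside an intron on the same strand had a median of 1.07 (902 tested of 1466), those on the opposite strand 0.40 (16 of 232), and those elsewhere 0.57 (287 of 1516). Models of the sense intronic label had a median of 1.01, and 122 of 219 rose while 1 fell. All genes inside an intron on the opposite strand had a median of -0.10, with 14 of 224 rising and 28 falling. The kit named in the labels does not mark strand and the strand setting of the counting is not given in the sources used here, so the difference between the strands is stated as measured.

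The response of these models climbed with the run of adenines up to 15 bases and was lower beyond. Models on the same strand whose longest run was under 8 bases had a median of 1.01 (961 tested) and those with 8 to 11 adenines 1.07 (283). Those with 12 to 15 had 1.19 (83) and those with 16 or more 1.03 (64). In the same order 48.9%, 57.7%, 64.9% and 57.5% rose along the share, beside 12.9% of all genes. Runs of thymines in the same models gave 1.00 under 8 bases (817), 1.05 at 8 to 11 (322), 1.11 at 12 to 15 (144) and 1.07 at 16 or more (108). Here 46.5%, 59.0%, 64.4% and 63.3% rose. These classes, chosen after the data were seen, also differ in length, with a median transcript of 1020 bases where the run of adenines was under 8 and 2406 bases where it was 16 or more.

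Among the pairs tested, the intronic model moved more than the gene around it. In 1342 pairs of a same-strand intronic model and its host, with 888 hosts, the model had a median of 1.03 and the host 0.13, and the model's fold change was above the host's in 1301 pairs (96.9%). Both members rose in some pairs, and in 81 of 1782 pairs tested along the share the model rose while the host fell. Pairs of 1 host share that host's value and are not independent. Some models passed the filter on low counts only through the library where they are high, as given above. The counts and medians therefore describe the pairs tested and not all such pairs.

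6720464F23Rik, a TEC model at chr1:160608955-160612450 within Rabgap1l, stood at 5.36, 2.31, 2.87 and 1.99 CPM in the high-share libraries, 1.28, 1.09, 1.00 and 1.36 CPM in the 4 between and 1.09, 0.759, 0.765 and 0.553 CPM in the low-share libraries. The sets did not overlap, and its slope was 1.47 ± 0.13 (SE, adjusted p = 9.88e-05 by edgeR with Benjamini-Hochberg adjustment). Its host Rabgap1l, a GTPase-activating protein gene spanning 574 kb, stood at 94.0, 42.4, 83.2 and 40.3 CPM and at 34.3, 34.9, 31.5 and 27.8 CPM, with a slope of 0.71 ± 0.19 (adjusted p = 0.0163 in edgeR). Rabgap1l did not overlap between the sets either, and it no longer passed without replicate 6 at 1 mg/kg (adjusted p = 0.124) or replicate 5 at 5 mg/kg (adjusted p = 0.0599). Gm42611 at chr3:157980248-157983654 stood at 3.89, 2.60, 2.22 and 1.498 CPM in the high-share libraries and 1.04, 1.22, 0.685 and 0.737 CPM in the low-share libraries. Its host Ankrd13c, an ankyrin repeat gene, stood at 28.5, 24.8, 28.4 and 26.4 CPM and 28.0, 24.4, 23.9 and 24.3 CPM, sets that overlap. The slopes were 1.12 ± 0.11 for Gm42611 (adjusted p = 9.88e-05 in edgeR) and 0.07 ± 0.06 for Ankrd13c (adjusted p = 0.376). A further model within its host, Gm38365 at chr1:87897540-87900532, had 2.28 to 6.61 CPM in the high-share and 0.778 to 1.63 CPM in the low-share libraries, while its host Dgkd, a diacylglycerol kinase gene, had 76.0 to 109 CPM and 67.3 to 87.0 CPM. The slope was 1.34 ± 0.11 for Gm38365 (adjusted p = 9.88e-05 in edgeR) and 0.16 ± 0.10 for Dgkd (adjusted p = 0.226). The 3 pairs were chosen after their values were seen.

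Nuclear long noncoding RNAs were partly higher. Of 20 listed, 18 were tested, with a median of 0.50, and 7 rose along the share and none fell: Malat1, Xist, Kcnq1ot1, Ftx, Jpx, Pvt1 and Tug1. These are 38.9% of the tested members, beside 12.9% of all genes that rose. Most of the list overlaps another annotated gene. Reads that match more than 1 gene are tallied apart, and which reads those are depends on the strand setting, which is not known. Without replicate 6 at 1 mg/kg 2 of the 18 rose, and with the brown fat level as a term none did.

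Malat1 (ENSMUSG00000092341, chr19:5795690-5802672), a marker of nuclear RNA, is the most abundant of the list. It stood at 6018, 5774, 3692 and 4702 CPM in the high-share libraries, 3401, 2942, 3131 and 3752 CPM in the 4 between and 3415, 3207, 2827 and 2778 CPM in the low-share libraries. All high-share libraries lay above all low-share ones, although replicate 1 at 1 mg/kg lay below one of the 4 between. The slope was 0.53 ± 0.13 (SE, adjusted p = 0.00809 by edgeR), and 0.51 without replicate 6 at 1 mg/kg (adjusted p = 0.0864).

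Neat1 (ENSMUSG00000092274, chr19:5824708-5845478), the scaffold of paraspeckles, did not follow Malat1. It stood at 160.3, 225, 104 and 198 CPM in the high-share, 124, 104, 128 and 188 CPM in the middle and 158, 161, 173 and 213 CPM in the low-share libraries. The sets overlapped, and the slope was -0.09 ± 0.18 (adjusted p = 0.731 in edgeR), with the sign turned to 0.44 by library size alone. The 2 markers of nuclear RNA therefore gave different readings, and the difference between their slopes was not tested.

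Xist (ENSMUSG00000086503, chrX:103460366-103483254), which coats the inactive X chromosome, stood at 920.2, 862, 676 and 743 CPM, then 546, 511, 500.4 and 547 CPM and then 551, 426, 430 and 326 CPM from the high-share to the low-share libraries. The sets did not overlap, and the slope was 0.65 ± 0.09 (adjusted p = 4.38e-04 in edgeR). Jpx and Ftx, noncoding genes next to Xist, had slopes of 0.42 ± 0.11 (adjusted p = 0.0131 in edgeR) and 0.80 ± 0.18 (adjusted p = 0.00647). Without replicate 6 at 1 mg/kg neither passed (adjusted p = 0.161 for Jpx and 0.0761 for Ftx in edgeR). Tsix, the antisense partner of Xist, had 0.202 to 0.254 CPM and 0.102 to 0.171 CPM in the sets, with a slope of 0.37 ± 0.20 that did not pass (adjusted p = 0.206 in edgeR).

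Kcnq1ot1 (ENSMUSG00000101609, chr7:143203458-143296549), an imprinted transcript that silences its neighbours, stood at 204, 177, 127 and 142 CPM, 97.6, 95.1, 80.1 and 108 CPM and 88.1, 103, 76.3 and 64.6 CPM in the 3 sets of 4. The high-share libraries lay above all others. The slope was 0.72 ± 0.10 (adjusted p = 4.01e-04 in edgeR), and 0.70 with the brown fat level as a term, where it no longer passed (adjusted p = 0.13). Airn, another imprinted silencing transcript, had 6.00 to 15.4 CPM and 6.21 to 8.34 CPM, and its slope of 0.41 ± 0.23 did not pass (adjusted p = 0.196 in edgeR). Meg3, a maternally expressed RNA, had 7.57 to 35.4 CPM and 10.5 to 14.6 CPM, with replicate 6 at 5 mg/kg at 35.4 CPM, and its slope of 0.33 ± 0.30 did not pass (adjusted p = 0.424). Tug1 had 72.5 to 87.5 CPM and 51.8 to 67.3 CPM, with a slope of 0.28 ± 0.08 (adjusted p = 0.0177 in edgeR). Pvt1 had 2.80 to 3.95 CPM and 1.68 to 2.85 CPM, with a slope of 0.46 ± 0.12 (adjusted p = 0.0118). Without replicate 6 at 1 mg/kg Pvt1 (adjusted p = 0.108 in edgeR) and Tug1 (0.0559) did not pass, nor did Tug1 without replicate 4 (0.0501) or 5 (0.0755) at 5 mg/kg.

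Noncoding genes outside introns had a median of 0.16 over 1602, with 288 of 2246 rising (12.8%) and 182 falling (8.10%), beside 12.9% and 16.5% of all genes. The processed transcript label had 0.25 over 295, with 54 of 368 rising and 25 falling. The lincRNA label had a median of 0.08 over 540 genes, with 73 of 808 rising and 73 falling, and the antisense label had -0.04 over 497, with 58 of 735 rising and 72 falling. Host genes of small nucleolar RNAs, which are spliced and exported, had a median of 0.25 over 14, with 1 rising and 1 falling. The riser was Snhg17, at 4.01 to 7.75 CPM and 2.79 to 5.29 CPM (slope 0.47 ± 0.15, adjusted p = 0.0352 in edgeR), and Gas5 had 25.6 to 42.1 CPM and 21.1 to 28.5 CPM (slope 0.25 ± 0.13, adjusted p = 0.154). Snhg17 no longer passed without replicate 1, 3 or 6 at 1 mg/kg or replicate 4 or 5 at 5 mg/kg, where adjusted p ranged from 0.0512 to 0.141 in edgeR.

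Messenger RNAs known to keep an unspliced intron in the nucleus, the detained-intron mRNAs, were higher together. All 25 listed had a positive fold change, with a median of 0.48. In 23 of the 25 the high-share libraries lay above the low-share ones, beside 10.7% of all genes. The list was chosen with earlier results of these data known. Along the share 22 rose (88%, beside 12.9% of all genes) and none fell, and Clk2, Ddx5 and Srsf5 did not pass. When replicate 6 at 1 mg/kg was left out 11 rose. With the brown fat level as a term none passed, and the median slope was 0.43 in place of 0.35.

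Clk1, a kinase of splicing factors, stood at 147, 121, 122 and 128 CPM in the high-share, 114, 128, 116 and 100.4 CPM in the middle and 86.4, 90.5, 73.3 and 73.8 CPM in the low-share libraries. The middle libraries overlapped the high-share ones and lay above all low-share ones. The slope was 0.43 ± 0.09 (adjusted p = 0.00361 in edgeR). Ccnl1, a cyclin of the splicing machinery, had 40.8 to 59.0 CPM and 24.1 to 32.3 CPM (slope 0.53 ± 0.09, adjusted p = 0.00134 in edgeR), and Tra2a, a splicing regulator, 40.6 to 52.8 CPM and 20.7 to 32.0 CPM (slope 0.54 ± 0.10, adjusted p = 0.00174). Ddx5, an RNA helicase and the most abundant of the list, had 356 to 521 CPM and 294 to 348 CPM, and its slope of 0.28 ± 0.12 did not pass (adjusted p = 0.0982 in edgeR).

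**Figure D3:**
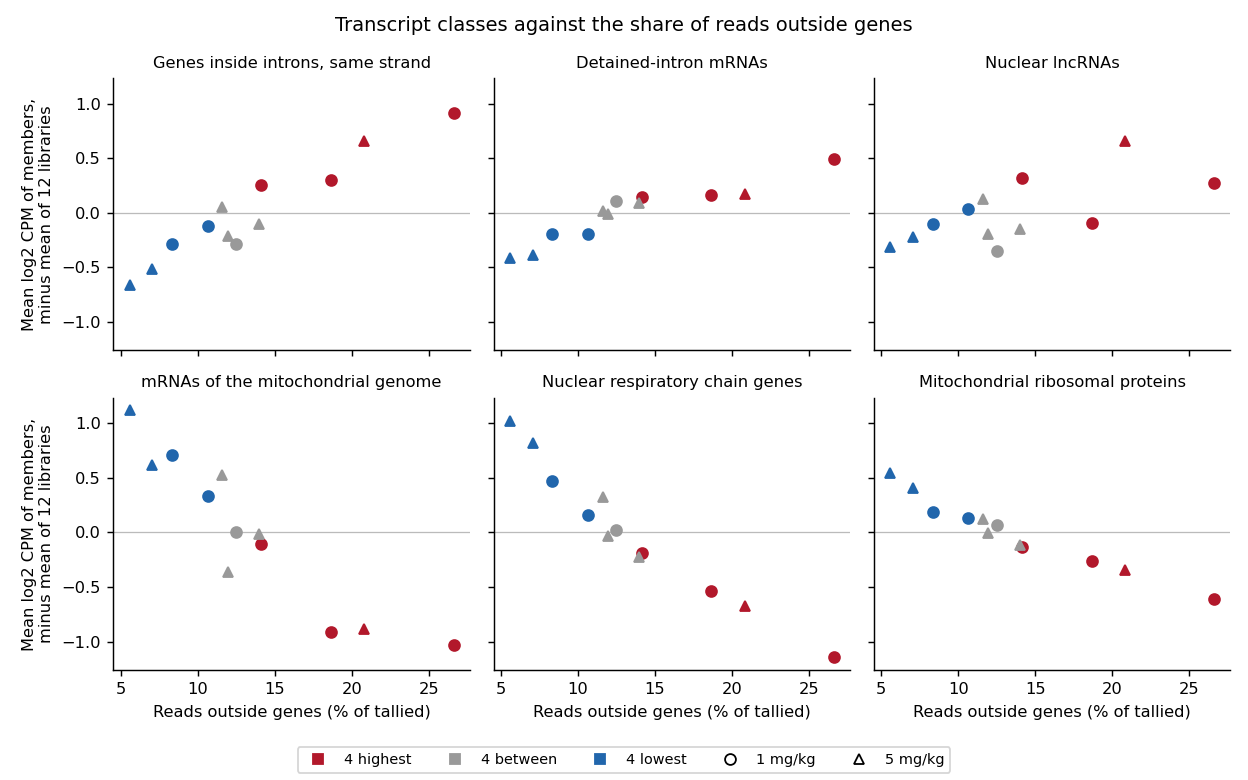
Each point is 1 library: the horizontal axis gives its reads outside genes in % of tallied reads, the vertical axis the mean log2 CPM of the class members minus the mean of the 12 libraries. Levels of genes inside introns and of detained-intron mRNAs climb along the share and those of respiratory chain and mitochondrial ribosomal genes descend, while the nuclear long noncoding RNAs scatter.

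Length was described over protein-coding genes by the length of the exons together and by the span from start to end. Genes with under 1 kb of exons had a median fold change of -0.32, and 1.00% rose and 31.8% fell. Genes with over 8 kb had a median of 0.17, and 23.6% rose and 9.50% fell, beside 8.87% and 20.2% of all protein-coding genes. The classes between followed in order of the median, at -0.25 for 1 to 2 kb, -0.09 for 2 to 4 kb and 0.04 for 4 to 8 kb. With library size alone the median under 1 kb was 0.36 and that over 8 kb 0.83, beside 0.72 over all genes. Of genes with over 8 kb, 206 of 2669 rose without replicate 6 at 1 mg/kg and 369 of 2694 without replicate 5 at 5 mg/kg, in place of 636 of 2694.

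Span gave a weaker order. Genes spanning under 10 kb had a median of -0.12, with 2.26% rising and 26.6% falling, and genes of 50 to 100 kb, 100 to 200 kb and over 200 kb had 0.09, 0.10 and 0.09, with 16.8%, 14.9% and 13.0% rising. Within most classes of exonic length the medians were close across spans: at 2 to 4 kb of exons the median was -0.10 for spans under 10 kb and -0.05 for spans over 100 kb, and at over 8 kb of exons it was 0.17 at 10 to 50 kb and 0.15 at over 100 kb. Thinly filled classes departed from this, with -0.63 for the 29 genes with under 2 kb of exons that span over 100 kb, where -0.25 held for spans under 10 kb, and 0.43 for the 9 genes with over 8 kb of exons that span under 10 kb. This cross of the classes was added after the data were seen. The share of the span taken by introns gave medians from -0.01 to 0.01 over 5 classes. With the brown fat level as a term no length class had a gene that passed, and the median fold change of genes under 1 kb was -0.053 in place of -0.32.

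By GC content of the transcript, the class of protein-coding genes with the lowest GC, of 5 of equal size, had 14.4% rising and 16.9% falling, and the class with the highest had 4.74% rising and 20.8% falling. The medians of all 5 GC classes lay between -0.05 and 0.05. Among long genes named by the rule, Ttn, the giant protein of muscle fibres, had 7247 to 23497 CPM in the high-share and 10789 to 29057 CPM in the low-share libraries, with a slope of -0.27 ± 0.33 (adjusted p = 0.554 in edgeR), which library size alone turned to 0.26. Dmd, the dystrophin gene of muscle, had 45.3 to 138 CPM and 81.1 to 210 CPM, with a slope of -0.71 ± 0.27 (adjusted p = 0.0663 in edgeR).

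**Figure D4:**
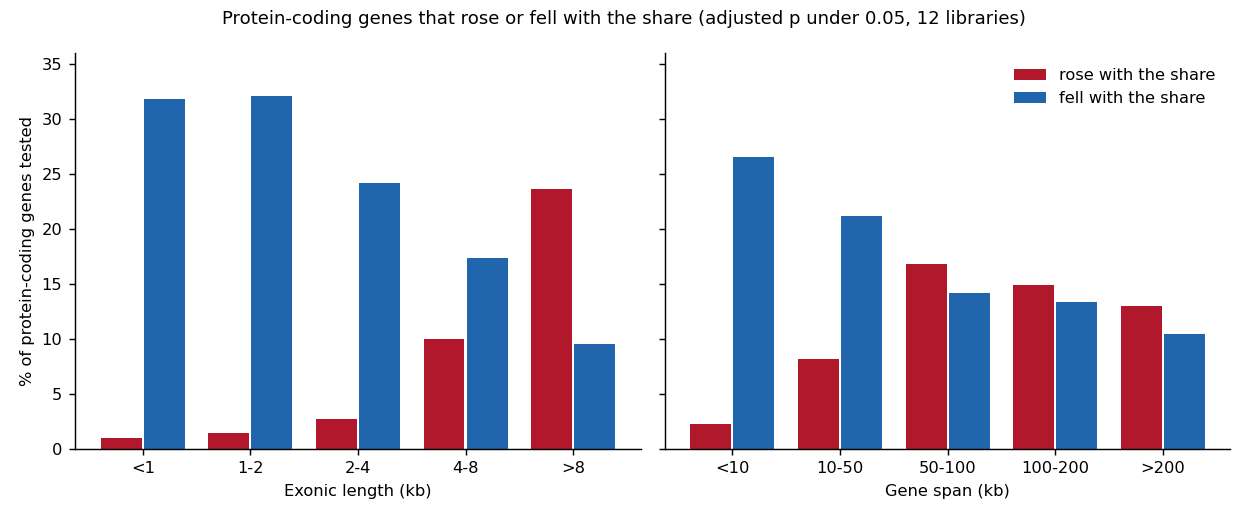
Bars give the % of protein-coding genes that rose or fell along the share at an adjusted p under 0.05 over 12 libraries, by exonic length (left) and by gene span (right), both in kb. Rising genes go from 1.00% under 1 kb to 23.6% over 8 kb of exons, and falling genes from 31.8% to 9.50%.

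Transcripts of the mitochondrial genome were lower where the share was high. The rRNA genes mt-Rnr1 and mt-Rnr2, which form the RNA of the mitochondrial ribosome, together took 43.3%, 41.9%, 39.2% and 47.4% of gene-assigned reads in the high-share libraries, 44.5%, 44.1%, 43.7% and 51.5% in the 4 between, and 49.5%, 52.9%, 54.6% and 59.5% in the low-share libraries. The sets did not overlap (43.0 ± 3.43% against 54.1 ± 4.13%, exact permutation p = 0.0286, adjusted 0.0457). Mitochondrial reads are part of the denominator of the share, so many of them lower the share by arithmetic. A p between sets chosen by the share is therefore partly fixed by the rule. For each 100 reads of nuclear genes there were 79.97 ± 12.2 and 134 ± 25.9 mitochondrial rRNA reads. Between the sets mt-Rnr1 and mt-Rnr2 had a median of -0.96, and both fell along the share, with slopes of -0.62 ± 0.20 (adjusted p = 0.0371 in edgeR) and -0.77 ± 0.24 (adjusted p = 0.0295). Neither passed with dose, or the skeletal muscle, adipocyte or brown fat level, as a term, or with library size alone. mt-Rnr1 no longer passed without replicate 1, 2 or 3 at 1 mg/kg or replicate 1, 3, 4 or 5 at 5 mg/kg (range of adjusted p 0.0514 to 0.154 in edgeR). mt-Rnr2 no longer passed without replicate 1 or 6 at 1 mg/kg or replicate 4 or 5 at 5 mg/kg (range 0.0544 to 0.121).

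The mitochondrial mRNAs, which encode subunits of the respiratory chain, took 2.88 ± 0.394% of gene-assigned reads against 4.81 ± 0.456% (exact permutation p = 0.0286, adjusted 0.0457). Their reads, too, are part of the denominator of the share. All 10 tested along the share fell, beside 16.5% of all genes. All 8 tested between the sets were lower without overlap, with a median of -1.39, beside 8.31% of all genes. With the skeletal muscle level as a term 3 of 10 fell, and with the brown fat level none. Of the 13 genes, 6 had from 0 to 46 reads in a library, mt-Co2 and mt-Co3 among them, while the other 7 were abundant. Reads that align to more than 1 place are tallied apart, which lowers the count of a gene that has a near-identical copy.

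mt-Co1, a core subunit of cytochrome oxidase, stood at 9007, 11721, 10849 and 17959.6 CPM in the high-share, 19128, 21390.5, 15828 and 25599 CPM in the middle and 22784, 31381, 29936 and 39987 CPM in the low-share libraries. Its levels in the sets did not overlap, and the slope was -1.06 ± 0.17 (adjusted p = 9.36e-04 in edgeR). mt-Cytb, of the cytochrome bc1 complex, had 2059 to 3897 CPM and 5914 to 10219 CPM (slope -1.15 ± 0.19, adjusted p = 8.62e-04 in edgeR). mt-Nd6, the mRNA of the light strand, had 64.6 to 148 CPM and 193 to 299.7 CPM (slope -1.02 ± 0.20, adjusted p = 0.0025). Of 22 mitochondrial tRNA genes 8 were tested between the sets, all lower. Of 9 tested along the share 5 fell (55.6%, beside 16.5% of all genes). The threonine tRNA mt-Tt had 0.613 to 1.14 CPM and 2.68 to 7.09 CPM (slope -1.75 ± 0.26, adjusted p = 5.71e-04 in edgeR).

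Nuclear genes of the respiratory chain and ATP synthase fell with the mitochondrial ones. All 39 listed were lower, with a median of -1.33, and the sets did not overlap for 38, beside 8.31% of all genes. All 39 fell along the share, beside 16.5% of all genes. With the skeletal muscle level as a term 37 fell, and with the brown fat level as a term none passed while the median slope was -0.66 in place of -1.06. Atp5b, the catalytic subunit of ATP synthase, stood at 294, 448, 452 and 612 CPM in the high-share, 603, 730.2, 685 and 866 CPM in the middle and 817, 956, 1229.7 and 1411 CPM in the low-share libraries. The highest high-share library lay just above the lowest of the 4 between and below all low-share libraries. The slope was -1.07 ± 0.11 (adjusted p = 1.04e-04 in edgeR). Ndufa1, of complex I, had 13.3 to 24.0 CPM and 34.1 to 57.8 CPM (slope -1.04 ± 0.10, adjusted p = 9.88e-05 in edgeR), and Cyc1, cytochrome c1, had 16.5 to 30.5 CPM and 45.7 to 87.7 CPM (slope -1.20 ± 0.13, adjusted p = 1.16e-04).

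The proteins of mitochondrial and cytosolic ribosomes parted. Of 77 tested genes for mitochondrial ribosomal proteins all were lower, with a median of -0.69. Of these, 71 fell along the share (92.2%, beside 16.5% of all genes). With library size alone their median was -0.0066, below the 0.72 of all genes on that scale. Mrps2 had 9.02 to 11.5 CPM in the high-share and 15.95 to 20.6 CPM in the low-share libraries (slope -0.61 ± 0.08, adjusted p = 2.86e-04 in edgeR), and Mrpl34 5.79 to 9.28 CPM and 12.9 to 23.3 CPM (slope -0.93 ± 0.12, adjusted p = 1.87e-04). Genes for cytosolic ribosomal proteins had a median of 0.33 over 82, and along the share none of 85 rose and 3 fell. Without replicate 6 at 5 mg/kg 18 of 85 rose, and the median slope was 0.33 in place of 0.19. Their mean log2 CPM was 6.21, 5.63, 6.45 and 5.80 in the high-share, 6.27, 6.43, 6.44 and 6.07 in the middle and 5.76, 5.81, 5.85 and 5.64 in the low-share libraries. Replicates 6 and 1 at 1 mg/kg and the middle libraries were high, as they were for the B cell markers given with the cell types, and with the B cell level as a term the median slope was -0.014. It was 0.71, with 72 rising, with library size alone, and -0.094 with the skeletal muscle level and -0.20 with the adipocyte level as a term. The 3 that fell in the fit without such terms were Rps27l, Rpl3l and Rpl39l, like-named relatives of ribosomal protein genes, of which Rpl3l is a muscle form. Rpl4 had 328 to 568 CPM and 314 to 413 CPM, and its slope of 0.20 ± 0.16 did not pass (adjusted p = 0.358 in edgeR). Rps27l had 12.4 to 21.8 CPM and 26.2 to 28.9 CPM (slope -0.58 ± 0.06, adjusted p = 1.01e-04), and Rpl3l 7.87 to 26.3 CPM and 15.2 to 45.6 CPM (slope -1.07 ± 0.24, adjusted p = 0.00563).

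Small structured noncoding RNAs and histone mRNAs mostly lack a long tail of adenines. Of 6 tested structured RNAs 5 were lower, and 1 of 8 rose and 1 fell along the share. Rn7sk, which holds back transcription elongation in the nucleus, had 4487 to 6717 CPM and 5865 to 6309.7 CPM, with a slope of -0.11 ± 0.13 (adjusted p = 0.56 in edgeR), turned to 0.41 by library size alone. Replication-dependent histone genes had a median of 0.95 over 50 of 67 listed, 40 of them positive, with 22 higher and 2 lower at an unadjusted p under 0.05, beside 19.3% and 15.5% of all genes. Along the share none of 54 rose and 3 fell. Their mean log2 CPM was 0.69, 0.40, 1.52 and 0.076 in the high-share, 1.36, 1.39, 1.20 and 0.92 in the middle and -0.14, 0.13, 0.13 and 0.054 in the low-share libraries. The sets overlapped, and the middle libraries lay above most of the high-share ones. Hist1h1a, a linker histone, stood at 7.90, 5.08, 13.1 and 1.69 CPM in the high-share, 9.68, 10.7, 10.2 and 7.25 CPM in the middle and 1.28, 2.76, 1.79 and 1.19 CPM in the low-share libraries, and its slope of 1.12 ± 0.60 did not pass (adjusted p = 0.172 in edgeR). Hist1h2bf, a core histone, had 0.610 to 2.11 CPM and 0.282 to 0.369 CPM, sets that did not overlap (slope 0.98 ± 0.54, adjusted p = 0.187 in edgeR). Hist1h1c, another linker histone, was one of the 3 that fell, at 31.8 to 44.4 CPM and 44.7 to 60.0 CPM (slope -0.45 ± 0.09, adjusted p = 0.00266 in edgeR, and 0.072 with library size alone).

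Olfactory, vomeronasal and trace amine receptor genes, which a mammary gland is not known to use, served as a further view of scattered reads. In units of reads for each 1e6 nuclear gene reads, they held 132, 91.9, 81.3 and 79.7 in the high-share libraries, 111, 80.9, 64.1 and 63.1 in the 4 between, and 73.2, 53.6, 40.6 and 36.7 in the low-share libraries. The sets did not overlap (96.2 ± 24.3 against 51.0 ± 16.4, SD, n = 4 each). Only 19 of 1481 such genes were tested, with a median of 0.34, and 2 of 34 rose along the share (5.88%, beside 12.9% of all genes). Genes of the Y chromosome, which female mice lack, had from 19 to 162 reads in a library and did not follow the share. Their summed level was 0.579 to 1.11 CPM in the high-share and 0.400 to 1.23 CPM in the low-share libraries, sets that overlap. The middle libraries had 1.17 to 2.32 CPM.

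Markers of several cell types fell along the share as well, those of brown fat, skeletal muscle and red blood cells among them. In a bulk sample fewer cells of a type and less RNA per cell cannot be told apart. All 14 brown fat markers were lower in the high-share libraries, with a median of -3.43. The sets did not overlap for 9, and 13 fell along the share, beside 8.31% and 16.5% of all genes. The summed level of the list was 91.5 to 193 CPM in the high-share, 337 to 1167 CPM in the middle and 301 to 1791 CPM in the low-share libraries, and no marker was at 0 in all libraries of a set. Ucp1, the uncoupling protein that defines brown fat, stood at 13.7, 0.932, 39.9 and 10.5 CPM in the high-share, 157, 102, 117 and 572 CPM in the middle and 92.8, 405, 846 and 731 CPM in the low-share libraries. The lowest value belonged to replicate 6 at 5 mg/kg, and the sets did not overlap. The slope was -3.20 ± 0.77 (adjusted p = 0.00869 in edgeR). Cox8b, a respiratory subunit of brown fat and muscle, had 17.5 to 48.1 CPM and 52.9 to 199 CPM (slope -1.77 ± 0.22, adjusted p = 1.81e-04 in edgeR). Dio2, which activates thyroid hormone, had 0.884 to 2.40 CPM and 3.78 to 30.3 CPM (slope -2.05 ± 0.61, adjusted p = 0.0244), and Otop1, a proton channel, 0.916 to 4.24 CPM and 7.35 to 40.3 CPM (slope -2.27 ± 0.47, adjusted p = 0.00371). Brown fat cells are rich in mitochondria, and the part of the brown fat level in the mitochondrial result was not tested beyond the fits with that level as a term. Those fits can hardly separate that level from the share. Dio2 no longer passed without replicate 1, 3 or 6 at 1 mg/kg or replicate 5 at 5 mg/kg, where adjusted p ranged from 0.0503 to 0.0687 in edgeR.

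Skeletal muscle markers were lower too, with a median of -1.10 over 20. None was apart between the sets, and 17 fell along the share (85%, beside 16.5% of all genes). When replicate 6 at 1 mg/kg was left out 4 fell. Their summed level was 20349.7 to 60278 CPM in the high-share and 30378 to 98482 CPM in the low-share libraries. Mb, myoglobin, had 58.0 to 183 CPM and 130.5 to 649 CPM (slope -1.37 ± 0.28, adjusted p = 0.00386 in edgeR), and Mylpf, a fast myosin light chain, 153 to 661 CPM and 384 to 1252 CPM (slope -1.17 ± 0.24, adjusted p = 0.00352). With the muscle level as a term 655 genes rose and 1307 fell along the share, and of the intronic models 383 of 1839 rose and 1 fell. Slow muscle markers had a median of -3.43 over 9, and 2 fell (22.2%, near the 16.5% of all genes). None of the 9 was apart between the sets. Their summed level was 342, 131, 90.4 and 222 CPM in the high-share and 197, 125, 1609 and 2628 CPM in the low-share libraries. The median thus rests on replicates 4 and 5 at 5 mg/kg, and the other low-share libraries lay within the range of the high-share ones.

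Adipocyte markers had a median of -0.65 over 18, and 5 fell (27.8%, beside 16.5% of all genes). The sets did not overlap for 2 of the 18, Slc2a4 and Gpd1, beside 8.31% of all genes, and they overlapped for all other members. Slc2a4, the insulin-responsive glucose transporter, had 37.8 to 90.6 CPM and 118 to 212 CPM (slope -1.02 ± 0.15, adjusted p = 5.59e-04 in edgeR), and Gpd1, of glycerol synthesis, 118 to 329.6 CPM and 639 to 1552 CPM (slope -1.72 ± 0.23, adjusted p = 2.75e-04). Red blood cell markers had a median of -1.34 over 7, and 7 of 8 fell. The sets did not overlap for 2 of the 7, Hbb-bs and Hba-a1, and they overlapped for the other tested members. The globin gene Hbb-bs had 17.1 to 80.9 CPM and 94.5 to 188 CPM (slope -1.45 ± 0.17, adjusted p = 1.65e-04 in edgeR), and Hba-a1 had 4.37 to 23.3 CPM and 26.7 to 55.2 CPM (slope -1.48 ± 0.17, adjusted p = 1.55e-04). Of 10 epidermis markers 6 were tested between the sets, with a median of -3.53, and 4 of 10 fell along the share. Their summed level was 3.02 to 7.42 CPM in the high-share and 5.84, 5.33, 130 and 4.47 CPM in the low-share libraries. The median thus rests mostly on replicate 4 at 5 mg/kg, and the other low-share libraries lay within the range of the high-share ones. Krt10, a keratin of the outer skin, had 1.11, 0.864, 27.6 and 0.983 CPM in the low-share libraries, with replicate 4 at 5 mg/kg far above the rest, and 0.389 to 0.644 CPM in the high-share libraries. Its slope was -2.60 ± 0.81 (adjusted p = 0.0295 in edgeR), and -1.10 without that library (adjusted p = 0.264). It did not pass without replicate 1 (adjusted p = 0.0575) or 6 (0.0685) at 1 mg/kg either.

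Lymphocyte markers split the high-share libraries in a way that the share did not. Bank1, a B cell scaffold protein, stood at 161, 6.41, 138 and 4.32 CPM in the high-share, 103, 116, 97.8 and 58.4 CPM in the middle and 5.35, 22.6, 4.33 and 4.73 CPM in the low-share libraries. Replicates 6 and 1 at 1 mg/kg and the 4 middle libraries were high, and the other high-share libraries were at the level of most low-share ones. The B cell list had a median of 3.67 over 14 and the T cell list 2.98 over 14, with none of either passing along the share. Cr2, complement receptor 2, had 0.575 to 141 CPM and 0.545 to 15.7 CPM (slope 2.07 ± 1.51, adjusted p = 0.309 in edgeR), and Zap70, a kinase of T cells, 0.192 to 10.9 CPM and 0.205 to 1.83 CPM (slope 1.60 ± 1.03, adjusted p = 0.253). With the B cell level as a term 3754 genes rose and 3527 fell along the share.

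Luminal epithelium (median 0.34 over 17), basal epithelium (0.10 over 9), endothelium (-0.14 over 12) and macrophage markers (-0.12 over 12) had no member that passed along the share. Pecam1, an endothelial adhesion molecule, had 92.3 to 124 CPM and 86.2 to 103 CPM (slope 0.15 ± 0.10, adjusted p = 0.283 in edgeR). Of fibroblast and matrix markers 3 of 14 fell (21.4%), and of Schwann cell markers 1 of 10, shares near the 16.5% of all genes. The lymph node stroma list had a median of 1.80 over 6, and none of 8 passed. The part of these cell types in the transcript classes was not tested beyond the fits with a list level as a term.

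**Figure D5:**
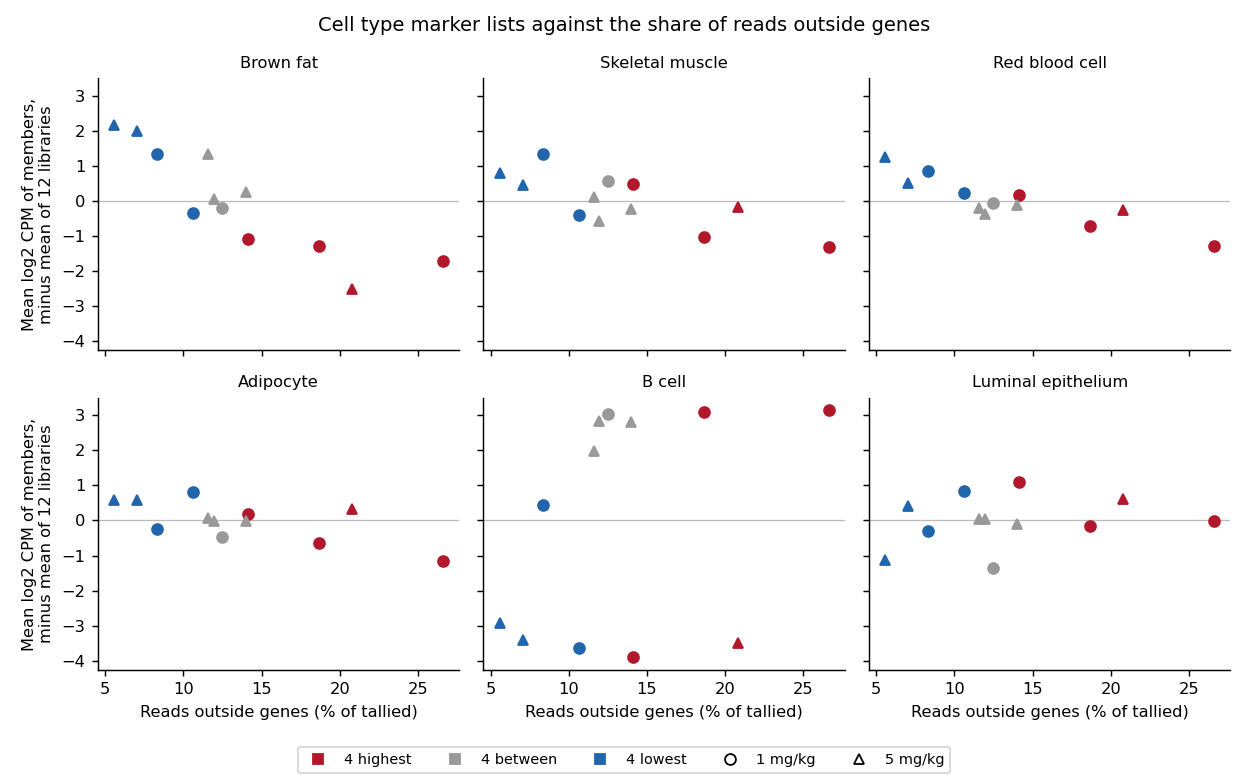
Each point is 1 library: the horizontal axis gives its reads outside genes in % of tallied reads, the vertical axis the mean log2 CPM of a cell type's markers minus the mean of the 12 libraries. Brown fat markers descend along the share, and B cell markers are high in 2 of the high-share libraries and in all 4 between and low in the other high-share libraries.

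The genes with the smallest p between the sets, are given as values that did not pass. On the lower side Adra1a, an adrenergic receptor, stood at 2.93, 4.92, 4.55 and 5.82 CPM in the high-share and 15.7, 10.3, 18.4 and 13.8 CPM in the low-share libraries, a log2 fold change of -1.71 ± 0.23 (SE, unadjusted p = 4.64e-05, adjusted p = 0.0537 in edgeR). Itpk1, an inositol phosphate kinase, differed by -1.25 ± 0.18, Acads, an acyl-CoA dehydrogenase of fat oxidation, by -1.40 ± 0.23, and Alas1, the first enzyme of haem synthesis, by -0.94 ± 0.16. On the higher side Mbtd1, a chromatin reader, stood at 26.5, 24.3, 23.9 and 23.7 CPM in the high-share and 17.9, 15.7, 12.9 and 13.7 CPM in the low-share libraries, a difference of 0.69 ± 0.13 (unadjusted p = 4.65e-04, adjusted p = 0.0537 in edgeR). Srgap3, a GTPase-activating protein, differed by 1.22 ± 0.23, Adamts17, a metalloproteinase, by 1.59 ± 0.31, and Zfp950, a zinc finger gene, by 0.92 ± 0.17. The sets did not overlap for any of these 8.

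Among 12936 protein-coding genes with a mean of at least 1 CPM, 154 had a rank correlation with the share of at least 0.9 over the 12 libraries and 556 of at most -0.9. The genes named for the closest likeness were chosen for it, so their levels are a description with no test. Ino80d, of a chromatin remodelling complex, stood at 75.2, 56.1, 62.0 and 53.9 CPM, then 50.2, 48.0, 46.1 and 45.3 CPM and then 46.0, 44.7, 37.3 and 31.8 CPM (Spearman's rank correlation 0.99, n = 12). Kmt2e, a chromatin regulator, had 103 to 160.1 CPM in the high-share and 57.3 to 82.4 CPM in the low-share libraries, Vps13b, a lipid transfer protein of the Golgi, 114 to 150.5 CPM and 81.2 to 99.8 CPM, and Zfc3h1, a nuclear zinc finger protein, 57.8 to 87.6 CPM and 34.3 to 46.9 CPM. Dop1a, Fam13b, Usp48 and Zfp950 completed the 8. Of the 8 genes that ran most against the share, 7 encode mitochondrial proteins: Mrpl16, Mrpl47, Mrps22 and Mrps31 of the mitochondrial ribosome, Uqcrfs1 and Cyc1 of the cytochrome bc1 complex, and Pdhx of the pyruvate dehydrogenase complex. Pdhx stood at 12.2, 18.5, 19.7 and 25.01 CPM in the high-share and 35.3, 40.3, 50.8 and 66.2 CPM in the low-share libraries. Hint1, a nucleotide hydrolase, had 19.4 to 28.0 CPM and 33.1 to 44.0 CPM. Uqcrfs1, the Rieske iron-sulfur protein, stood at 24.5, 36.4, 43.5 and 51.5 CPM, 53.1, 58.0, 63.1 and 84.2 CPM and 63.6, 86.6, 135 and 138 CPM along the order of the libraries.

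The doses were compared with and without the share. With the share as a term, none of 18647 genes differed between 5 mg/kg and 1 mg/kg at a Benjamini-Hochberg adjusted p under 0.05 in edgeR's quasi-likelihood test, and 370 had an unadjusted p under 0.05 where 932 genes make up 5%. Without the term none passed and 359 had an unadjusted p under 0.05, and DESeq2 with the term called none, with 688 at an unadjusted p under 0.05. Leaving out replicate 4 at 1 mg/kg raised the number at an unadjusted p under 0.05 from 370 to 1314 with none passing. With dose as a term in the slope along the share, 2086 genes rose and 2982 fell. Whether slopes differed between the doses was tested with an interaction term, which no gene passed (smallest adjusted p 0.245, and 963 of 20832 genes at an unadjusted p under 0.05).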

How the data were processed

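RNA of 12 mammary gland libraries was sequenced, and for each the authors deposited raw read counts per Ensembl gene with 5 tally lines of reads not given to a gene. STAR alignment to mm10 (version not given in the sources used here) and counting with HTSeq 0.6.1 are listed per the submitters' processing notes. Which annotation and which strand option HTSeq was run with was not stated. Symbols and positions came from GENCODE vM21 on GRCm38, which matched 55227 of 55487 gene IDs, with 260 missing. The tally lines held 16.7% to 35.7% of reads and stayed out of library sizes and tests, leaving 48.2 to 75.3 M (M, 1e6) gene-assigned reads per library.

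The share of reads outside genes was the no-feature line over the sum of all lines. Libraries were compared with edgeR 4.0.16 in R 4.3.3 (default expression filter, TMM, robust quasi-likelihood fit, Benjamini-Hochberg adjustment, threshold 0.05), as 4 against 4 and as a slope over 12. DESeq2 1.42.0 and limma 3.58.1 gave alternatives, beside other scalings and filters, terms for dose and cell type levels, and single libraries left out. Single values per library were compared by exact two-sided permutation. The members and lists were chosen with earlier results of these data known. Genes are named by a rule: the 8 with the smallest p in each direction with a mean of at least 1 CPM, without predicted models, all tested nuclear noncoding RNAs and mitochondrial genes, and of other lists the 3 with the smallest p and the most abundant, of which the text gives a selection (1 gene that the rule names is not reported here). The text adds the pairs of an intronic model and its host, the classes by runs of bases and the crossed length classes, chosen after the data were seen.

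On simulated counts with known changes, the 4 against 4 comparison over 18002 genes recovered 15 of 100 genes changed by 1 on the log2 scale and 75 of 100 changed by 2, with 3 false calls. The slope over 20221 genes recovered 49 and 83 of 100, with 11 false calls. No libraries were duplicates: over 66 pairs counts of genes with 20 or more reads gave a lowest chi-square per degree of freedom of 41.7.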

Additional observations from a re-analysis of the deposited data

Results flagged for a closer look

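In 7 of 172 sets of 4 or 6 libraries examined, 1 library stood apart by more than Dixon's critical value, 0.829 for 4 libraries, where chance gives about 1 in 20. Replicate 3 at 1 mg/kg stood above the other low-share libraries for 3 lymphocyte genes: Bank1 at 22.6 CPM with the next at 5.35 CPM, Cr2 at 15.7 CPM with the next at 1.23 CPM, and Zap70 at 1.83 CPM with the next at 0.242 CPM. Krt10 was 27.6 CPM in replicate 4 at 5 mg/kg with the next low-share library at 1.11 CPM. Krt10 was lowest of the high-share libraries in replicate 6 at 1 mg/kg, at 0.389 CPM with the next at 0.611 CPM. Srgap3 was highest of the high-share libraries in replicate 6 at 1 mg/kg, at 14.4 CPM with the next at 9.21 CPM. Ankrd13c was highest of the low-share libraries in replicate 4 at 1 mg/kg, at 28.0 CPM with the next at 24.4 CPM.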

How the results depend on the processing

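Between the sets, 0 genes passed in edgeR, and 4154 with DESeq2, 2301 with limma-voom, 8280 with library size alone, 1017 with no low-count filter, 408 at 1 CPM or more in 4 libraries, 990 with the B cell level as a term, 4608 with all 12 libraries in 3 sets, and 0 to 3585 with 1 library left out. Along the share 6125 genes passed, 10626 with library size alone, 1962 with the skeletal muscle level and 0 with the brown fat level as a term, and 2709 to 7715 with 1 library left out. The number of genes with at least 10 reads differed by 1216 between 6 libraries and 6 (exact permutation p = 0.00866). The causes of these differences were not tested.

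With library size alone the median fold change was 0.83 over 8 kb of exons, 0.36 under 1 kb (turned), 0.74 over 200 kb of span, 0.54 under 10 kb (turned), 1.64 for TEC, 1.66 for sense intronic, 1.69 for same-strand intronic, 1.15 for detained-intron mRNAs, 1.15 for nuclear long noncoding RNAs, -0.72 for mitochondrial mRNA, -0.28 for mitochondrial rRNA, -0.0066 for mitochondrial ribosomal proteins, -0.64 for the respiratory chain and 1.03 for cytosolic ribosomal proteins. With the brown fat level as a term it was -0.053 under 1 kb, -0.078 over 200 kb of span (turned), -0.028 under 10 kb, 0.35 for TEC, 0.44 for sense intronic, 0.41 for same-strand intronic, -0.62 for mitochondrial mRNA, -0.27 for mitochondrial rRNA, -0.14 for mitochondrial ribosomal proteins, 0.037 for nuclear long noncoding RNAs, -0.22 for the respiratory chain, 0.63 for cytosolic ribosomal proteins, 0.060 for brown fat (turned) and 0.17 for skeletal muscle (turned). With the skeletal muscle level it was -0.99 for mitochondrial mRNA, 0.025 for cytosolic ribosomal proteins and -0.044 for skeletal muscle.

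Slopes turned sign with the adipocyte level as a term for Bank1 (-0.95), Cr2 (-2.72), Gas5 (-0.017), Neat1 (0.21), Pecam1 (-0.043), Rpl4 (-0.18) and Zap70 (-1.12). They turned with the skeletal muscle level for Ankrd13c (-0.030), Dgkd (-0.11), Dmd (0.30), Neat1 (0.18) and Ttn (0.86), with library size alone for Hist1h1c (0.072), Neat1 (0.44), Rn7sk (0.41) and Ttn (0.26), with the brown fat level for Meg3 (-0.49), Otop1 (0.36) and Ucp1 (0.47), and with the B cell level for Neat1 (0.069). With 1 library left out the slope ran from -0.21 to 0.051 for Neat1 and from -0.15 to 0.62 for Meg3. No paired analysis was possible because the labels give no replicate numbers, and those used here only name the libraries. The share left a thin gap at the boundary of the high-share libraries, and 4 libraries a set limit what the comparison between them can call.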
